A study of Mus musculus with 16 samples.

Results

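Cells of the mouse pancreatic cancer line KPC1199 that overexpress Ly6d were compared, gene by gene, with WT cells of the same line. Per the labels, the cells of all 4 libraries had been sorted out of orthotopic pancreatic tumours, that is, tumours grown from the line in the pancreas of host mice. The comparison had 2 libraries of sorted WT cells and 2 of sorted overexpression cells, out of 16 samples in the series, and asked how Ly6d acts in the initiation and development of pancreatic cancer. The labels give neither the vector or promoter behind the overexpression, nor the gate of the sort, nor the strain, age or sex of the hosts, nor whether the overexpression cells were 1 clone. Of 54532 genes in the count table, 15771 passed a filter on low counts and were tested. The 2 libraries of a group are not stated to come from separate animals, so p-values measure the spread between these libraries, which may be technical.

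The assignment of count columns to these groups was an inference from their names. The WT columns carry names with which the titles of the sorted WT libraries begin, but the same names occur inside titles of WT tumour tissue. The overexpression columns carry a name that the labels use for overexpression tumour tissue, while the sorted overexpression libraries have other titles. Whether the columns hold sorted cells or whole tumour tissue was not settled by the names, and genes of the epithelial tumour cells are therefore kept apart here from genes of acinar, islet, endothelial, stromal and immune cells.

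Ly6d encodes a small protein of the Ly6/uPAR family that is anchored to the outer cell membrane by a lipid, and it is known as a marker of squamous epithelia and of early B-lineage cells. The tumour cells of a pancreatic ductal cancer are epithelial and carry the keratins and junction proteins of simple epithelia. The normal pancreas around them consists mainly of acinar cells, which make digestive enzymes, with ducts and with the hormone-producing islets. Growing tumours also contain fibroblasts, vessels and leukocytes.

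Library totals were 18108850 and 15449241 counts in WT and 18290325 and 18001470 counts in overexpression. Levels below are CPM, counts scaled to a library total of 1e6, given for WT replicates 1 and 2 and then for overexpression replicates 1 and 2. Fold changes are log2 values of overexpression over WT from edgeR's quasi-likelihood fit, with their standard error (SE), and a gene was called higher or lower when its Benjamini-Hochberg adjusted p over all genes tested was under 0.05.

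The gene that defines the groups stood at a high level in both of them. Ly6d (ENSMUSG00000034634, protein-coding, chromosome 15, 74762056 to 74763620 on the minus strand, GRCm38) had 22817 and 16472 counts in WT and 61813 and 61626 counts in overexpression. In CPM these were 1260.0 and 1066 against 3379.6 and 3423, so the groups did not overlap. The log2 fold change was 1.53 ± 0.08 (SE, n = 2 libraries each), with an adjusted p of 1.66e-07. Per length of gene, Ly6d ranked 13 among protein-coding genes in WT and 2 in overexpression. The WT cells therefore already carried Ly6d RNA at a high level, and the comparison is one of more against less Ly6d, not of presence against absence.

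Other members of the Ly6 family are related surface proteins. Of 19 list members tested, 2 were higher (Ly6d itself and Ly6c2) and 1 was lower, with a median log2 fold change of -0.13. The share called was 15.8%, with Ly6d counted in it, against 4.16% of all genes. The low-count filter asked for 0.554 CPM in at least 2 libraries, and Ly6c2 passed it only through overexpression. Of the 19, 13 reached that level in all 4 libraries, of which 1 was higher, Ly6d, and 1 lower. Ly6a, the stem cell antigen Sca-1, read 888 and 802 CPM in WT and 709 and 715 CPM in overexpression, without overlap, and its adjusted p of 0.059 missed the threshold. Ly6e read 1525 and 1541 against 1529 and 1447 CPM. Ly6c1, a marker of endothelium and of some leukocytes, was the lower member, with 229.9 and 206 against 167 and 179 CPM. It was not called when WT replicate 1 was left out (adjusted p = 0.0607). Ly6c2, a marker of inflammatory monocytes, was near the lower limit of the data, with 0.166 and 0.324 CPM in WT and 3.72 and 2.28 CPM in overexpression. Its adjusted p of 0.0182 became 0.0828 without WT replicate 1.

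Over all 15771 genes tested, 366 were higher (2.32%) and 290 lower (1.84%) in overexpression, together 656 (4.16%), and the median log2 fold change was -0.001. The count depended on single overexpression libraries: it was larger when either of them was left out, also over the same 15771 genes. Of the 656 genes, 133 belonged to the lists of other cell types, 78 were antigen receptor segments, 97 belonged to lists of tumour cell programmes and 348 were in no list. The shares called were 44.6% of 298 tested genes in the lists of other cell types, 11.5% of 843 in the programme lists and 2.40% of 14519 outside all lists. Called genes of the programme lists had a median absolute log2 fold change of 0.476, and 18 of those 97 exceeded a 2-fold change.

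By mean level over the 4 libraries, 2942 tested genes lay at 1 to 5 CPM, of which 110 were higher and 44 lower, and 2223 at 100 CPM or more, of which 99 were higher and 73 lower. The called genes of the first class had a median absolute log2 fold change of 3.25 and those of the second 0.377. A scarce RNA passes the test only with a large ratio, so these medians describe the called genes and not all genes of a class. Of the 172 called genes at 100 CPM or more, 34 exceeded a 2-fold change. The scatter of group means shows both kinds of difference.

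**Figure D1:**
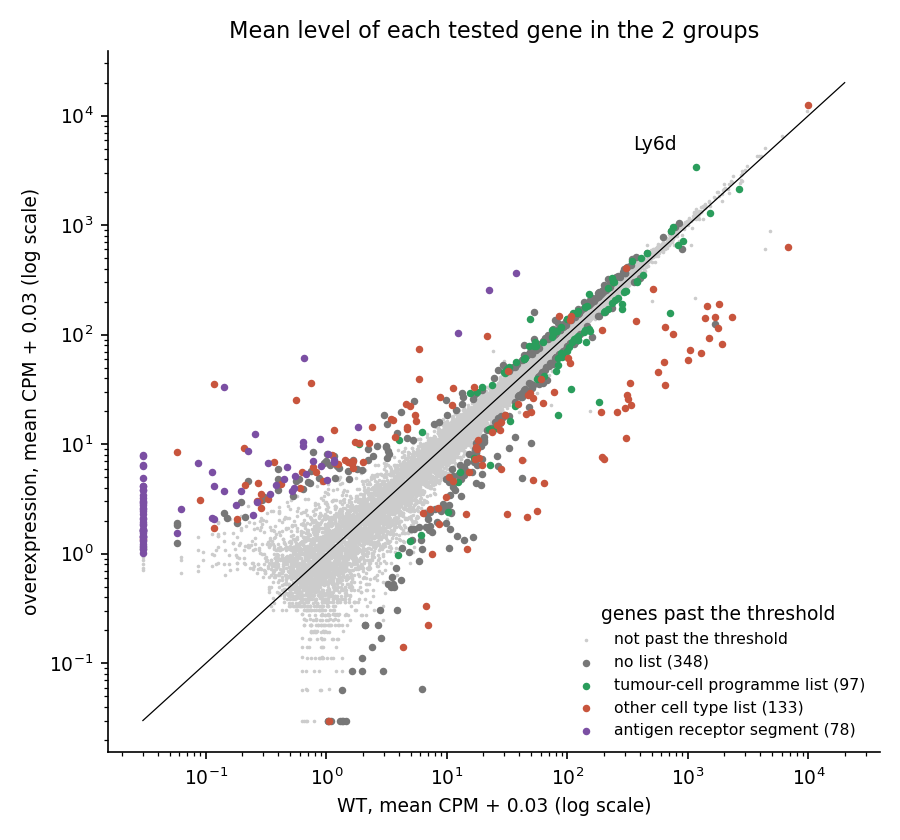
Mean CPM in WT (horizontal) and overexpression (vertical), both plus 0.03 and on log axes, 1 point per tested gene, with called genes coloured by the kind of list they belong to. Antigen receptor segments (78 called) rise from the lower left edge, and genes of other cell types lie on both sides. Most of the 97 called genes of programme lists stay near the diagonal, while 18 of them, Ly6d included, exceed a 2-fold change.

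Most RNAs that define the tumour epithelium differed little between the groups. The list of simple keratins and junction proteins had 35 members tested, of which 2 were higher and 2 lower, with a median log2 fold change of -0.07. The share called was 11.4%, against 4.16% of all genes, and the calls changed with the libraries kept. Krt8, a keratin of simple epithelia, read 4418 and 4365 CPM in WT and 4865 and 5163 CPM in overexpression. Its log2 fold change of 0.17 ± 0.06 had an adjusted p of 0.138, although the groups did not overlap. Its partner Krt18 read 2332 and 2295 against 2402 and 2596 CPM, and Krt19, the ductal keratin, 2899 and 2729 against 3037 and 3177 CPM. Neither passed the test. Epcam, the epithelial adhesion molecule, overlapped between groups, with 648 and 633 CPM against 649.6 and 625 CPM, and so did Cdh1, which encodes E-cadherin, with 579 and 577 against 541 and 583 CPM. All 5 were among the more abundant RNAs in every library.

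Krt7, another ductal keratin, pointed the other way, with 1391 and 1283 CPM in WT and 1112 and 1162 CPM in overexpression. Its log2 fold change of -0.25 ± 0.07 had an adjusted p of 0.0665. The calls for these 2 keratins depended on the test and the libraries. DESeq2 called both with all libraries (Krt7 lower, adjusted p = 0.00171, and Krt8 higher, 0.0371). They were also called without the low-count filter (0.00168 and 0.0302), without WT replicate 1 (0.00374 and 5.36e-05) and without WT replicate 2 (2.39e-06 and 2.21e-05). Cldn4, a tight junction protein of epithelia, fell from 82.1 and 80.1 CPM to 49.9 and 43.6 CPM, a log2 fold change of -0.81 ± 0.10 with an adjusted p of 0.000667. It was called with every other tool, scaling and filter tried and without any 1 library. Its relative Cldn7 read 96.3 and 94.2 against 89.01 and 79.9 CPM and was not called. Dsc2, a desmosomal cadherin, was the other lower member, but not when WT replicate 2 was left out (0.0754). Krt20, a keratin of gastric and intestinal epithelium, was higher, with 754 and 685 against 876 and 899 CPM. That call was lost without overexpression replicate 1 (0.0696) or replicate 2 (0.138). Tjp1 was higher, and its call was lost without WT replicate 1 (0.140) or overexpression replicate 1 (0.0608).

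**Figure D2:**
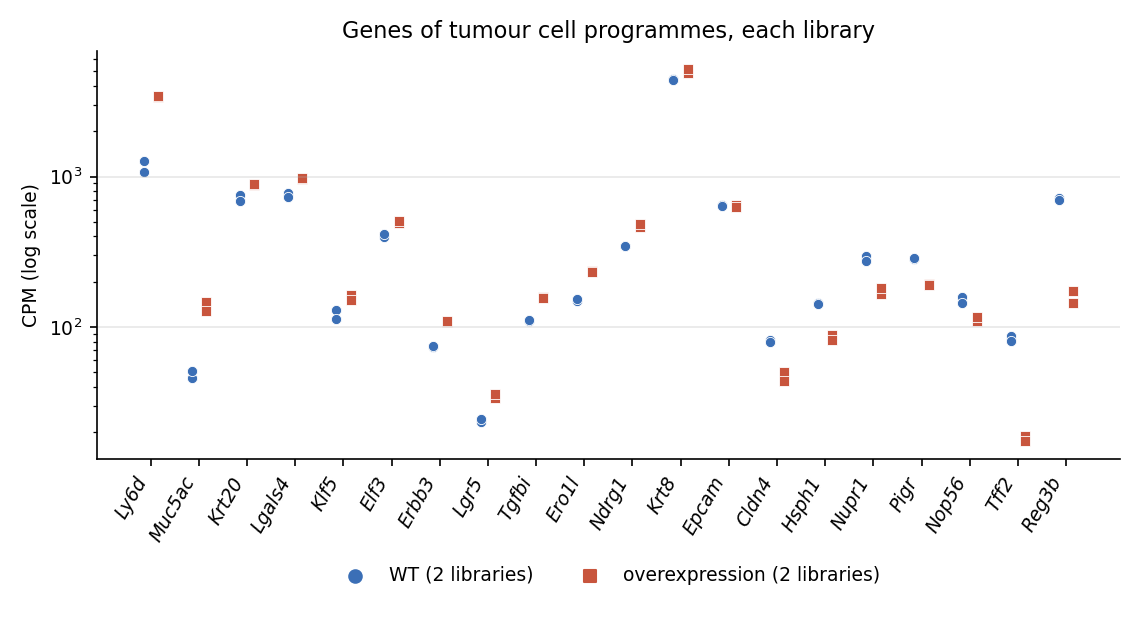
CPM on a log axis of genes of tumour cell programmes in each of the 4 libraries, 1 point per library. Keratins and Epcam have points of both groups close together, whereas the WT and overexpression points of Ly6d, Muc5ac, Tff2 and Reg3b lie apart.

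Digestive enzymes of acinar cells gave the lowest median of the 48 lists. Of 37 list members tested, 36 were lower and 0 were higher in overexpression by edgeR's quasi-likelihood test (also 0 higher by DESeq2 and at an unadjusted p under 0.05), with a median log2 fold change of -3.79 against -0.001 for all genes. The list held 3.006% and 3.045% of all counts in WT and 0.241% and 0.260% in overexpression. In bulk RNA, fewer cells of a type and less RNA per cell cannot be told apart, here and in the results that follow. Ctrb1, a chymotrypsinogen, read 6879 and 6717 CPM in WT and 595 and 666 CPM in overexpression, a log2 fold change of -3.45 ± 0.07 (adjusted p = 8.44e-11). By level per length it ranked 1 among protein-coding genes in WT and 39 in overexpression, so the most abundant mRNA of the WT libraries was an acinar one. Pnlip, pancreatic lipase, fell from 1811 and 2015 CPM to 82.4 and 83.3 CPM, and Cela2a, an elastase, from 2406 and 2259 to 139 and 150.4 CPM. Within each group the replicates were close, and between groups no enzyme named here overlapped. Amylases and trypsinogens have near-identical copies whose reads may be split between genes, so values of single members of those families are uncertain, among them Amy2a1 (187 and 214 against 7.27 and 7.22 CPM) and Prss1 (34 counts in WT over both libraries and 0 in overexpression).

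The fold was unequal across the acinar programme. Among the enzymes and their companions, Amy2a1 had a log2 fold change of -4.80, Pnlip of -4.55, Ctrl of -4.22 and Ctrb1 of -3.45. Reg1 and Reg2, secreted lectins of acinar cells that are induced in injured pancreas, fell less, with log2 fold changes of -2.47 ± 0.07 and -2.91 ± 0.07. Acinar regulators, receptors and other non-enzyme genes numbered 15 tested, with 9 lower, 0 higher and a median of -1.73. Rbpjl, a subunit of the acinar transcription factor complex PTF1, read 7.68 and 7.18 CPM in WT and 1.31 and 0.611 CPM in overexpression. Cckar, the receptor for cholecystokinin, read 28.6 and 27.96 against 6.18 and 5.61 CPM. Nr5a2, a nuclear receptor of acinar cells and ducts, had a smaller log2 fold change of -1.45 ± 0.24 (adjusted p = 0.00589). Bhlha15, or Mist1, which organises the secretory apparatus, had -1.73 ± 0.36, and its call was lost without WT replicate 1 (0.0818). Gata4 did not differ detectably, with 10.3 and 8.74 against 8.26 and 8.39 CPM, and Ptf1a itself was too low to be tested.

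Enzyme genes of the acinar cell share promoter motifs bound by PTF1, an E-box and a TC-box. A sequence is shown for Ctrl, the chymotrypsin-like gene, which read 644 and 641 CPM in WT and 35.7 and 34.3 CPM in overexpression (-4.22 ± 0.07), because its fall was among the most precise of the list. It is the 250 bases before the gene's RefSeq start (GRCm38.p6, chr8:105933863-105934112, minus strand), 5′ to 3′, with each CACCTG on either strand in capitals.
Ctrl: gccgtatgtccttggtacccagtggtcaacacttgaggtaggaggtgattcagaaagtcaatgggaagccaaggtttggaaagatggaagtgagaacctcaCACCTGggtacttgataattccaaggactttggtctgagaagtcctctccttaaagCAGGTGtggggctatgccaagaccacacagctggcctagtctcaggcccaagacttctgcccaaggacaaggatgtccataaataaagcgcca
Ctrl holds 2 such E-boxes and 0 matches to TTTCCC, the TC-box core, on either strand. Of the 36 acinar enzyme genes that were lower, 28 had a single listed start and a window. Among these, 14 (50%) held CACCTG, against 17.08% of 22862 windows of the same length, and 8 (28.57%) held TTTCCC, against 21.74%. The motifs were chosen after the values were seen, and a match is a description of the letters only.

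Islet RNA fell as well, by less. Of 30 islet genes tested, 15 were lower and 1 higher (53.3% called, against 4.16% of all genes), with a median log2 fold change of -0.92. Gcg, glucagon of the alpha cell, read 396 and 339.7 CPM in WT and 140.3 and 127 CPM in overexpression (-1.48 ± 0.08, adjusted p = 4.7e-07). Sst, somatostatin of the delta cell, read 81.5 and 73.2 against 28.6 and 30.7 CPM. Ins1 and Ins2, the insulins of the beta cell, had log2 fold changes of -0.83 ± 0.07 and -0.98 ± 0.09, from 196 and 191 and from 555 and 471 CPM in WT. Groups did not overlap in any of these 4 hormones. The secretory granule protein Chga (-1.43), the prohormone convertase Pcsk2 (-1.07) and the beta cell peptide Iapp (-0.64) were lower too. Cpe and Pdx1, which epithelial cells outside the islet can also express, had log2 fold changes of -0.02 and 0.10 and were not called. Acinar enzymes had a median log2 fold change of -3.79 in the same libraries. Whether the islet and acinar differences have a common source was not tested.

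Endothelial RNA was lower in 10 of 30 genes tested and higher in 0, with a median log2 fold change of -0.66. The share called was 33.3%, against 4.16% of all genes tested. Kdr, the main receptor for VEGF on endothelium, read 44.3 and 46.9 CPM in WT and 17.3 and 20.3 CPM in overexpression (-1.29 ± 0.14, adjusted p = 0.000179). Pecam1 read 54.7 and 48.8 against 27.7 and 25.3 CPM, Plvap, of fenestrated capillaries, 101 and 109 against 56.3 and 54.4 CPM, and Prox1, of lymphatic vessels, 19.2 and 19.7 against 6.67 and 6.17 CPM. These 4 genes separated the groups. Cdh5, the endothelial cadherin, did not do so clearly, with 33.3 and 29.4 CPM in WT and 13.4 and 29.2 CPM in overexpression. It was not called with all libraries (adjusted p = 0.306), and was called without overexpression replicate 2 (1.98e-05), the library that read 29.2 CPM. The number of lower genes in the list ranged with the libraries kept: it was 6 without WT replicate 1 and 15 without overexpression replicate 2.

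No fibroblast or matrix gene was called lower. Of 30 tested, 3 were higher and 0 lower, with a median log2 fold change of 0.16, and the list held 2.09% and 2.22% of counts in WT and 2.56% and 2.51% in overexpression. Fn1, fibronectin, which tumour cells can also make, was the most abundant member and read 9627 and 10144 CPM in WT and 12741 and 12308 CPM in overexpression. Its log2 fold change of 0.32 ± 0.05 had an adjusted p of 0.00572, and the call was lost without overexpression replicate 1 (0.0576). The collagen chain Col1a2 rose from 293 and 325 to 406 and 406 CPM and the receptor Pdgfrb from 102 and 113 to 141 and 157 CPM. Col1a1 (0.17) and Col3a1 (0.11) were not called. The number of higher members was 5 without WT replicate 2 or without overexpression replicate 2. The mean of Col3a1 was 3922 CPM in WT and 4301 CPM in overexpression, so RNA of the matrix was abundant in both groups whatever its cell of origin.

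Leukocyte genes rose from a low level. Of 29 pan-leukocyte and shared myeloid genes tested, 18 were higher and 0 lower by edgeR's quasi-likelihood test (also 0 lower by DESeq2 and at an unadjusted p under 0.05). The low-count filter asks for 0.554 CPM in at least 2 libraries, and genes that pass it only through overexpression had to be higher. In all 4 libraries 20 of the 29 reached that level, and 14 of these were higher. Ptprc, which encodes CD45 on all nucleated blood cells, had 33 and 24 counts in WT and 195 and 186 counts in overexpression. In CPM these were 1.82 and 1.55 against 10.7 and 10.3, a log2 fold change of 2.61 ± 0.30 with an adjusted p of 0.000401. Srgn, the proteoglycan of leukocyte granules, read 8.73 and 8.74 against 25.4 and 28.7 CPM. The list as a whole held 0.0116% and 0.00962% of counts in WT and 0.0249% and 0.0265% in overexpression. The 4 libraries were thus poor in leukocyte RNA in absolute terms, and the overexpression libraries less so.

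Of 25 neutrophil genes tested, 13 were higher and 1 lower. As 12 of the 25 reached the filter's level in both overexpression libraries but not in both WT libraries, they entered mainly through the group where they are high. Of the 13 at that level in all 4 libraries, 6 were higher and 1 lower. S100a8 and S100a9, the calprotectin subunits, read 0.663 and 0.388 against 26.4 and 24.6 CPM and 0.773 and 0.647 against 33.8 and 38.8 CPM. Ngp, a granule protein of immature neutrophils, had 2 and 1 counts in WT and 656 and 627 counts in overexpression. The growth factor receptor Csf3r rose from 1.66 and 0.583 to 10.6 and 16.2 CPM, and the cytokine Il1b from 6.07 and 5.696 to 39.6 and 39.9 CPM (2.74 ± 0.16, adjusted p = 7.3e-07). The lower member was Lcn2, an iron-binding protein that injured epithelium makes as well, which fell from 104 and 96.1 to 65.1 and 58.00 CPM (-0.72 ± 0.09). Ly6g, a classical surface marker of neutrophils, stayed low in both groups, with 2.26 and 2.01 against 2.296 and 3.06 CPM. These do not overlap, but the adjusted p was 0.807.

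Macrophage genes were higher in 17 of 34 tested and lower in 0 by edgeR's quasi-likelihood test (1 lower at an unadjusted p under 0.05 and by DESeq2). Of the 34, 22 reached the filter's level in all 4 libraries, and 12 of these were higher. Lyz2, lysozyme, read 23.3 and 19.9 CPM in WT and 94.7 and 101 CPM in overexpression (2.16 ± 0.11). C1qa, a complement subunit, read 4.69 and 5.11 against 21.98 and 22.3 CPM, Csf1r 5.14 and 5.696 against 17.7 and 19.00 CPM, and Adgre1, the F4/80 antigen, 0.552 and 0.647 against 5.52 and 5.500 CPM. Arg1, an arginase of tumour-associated myeloid cells, read 4.64 and 4.53 against 26.1 and 19.9 CPM. The summed share of the macrophage list, in contrast, was 0.328% and 0.302% in WT and 0.315% and 0.316% in overexpression. That sum is dominated by Spp1 (2841 and 2603 against 2397 and 2413 CPM) and Apoe (197 and 191 against 169.7 and 199 CPM), which epithelial tumour cells can also express. Neither was called with all libraries by edgeR's quasi-likelihood test, but Spp1 was lower by DESeq2 (adjusted p = 0.0156), without WT replicate 1 (0.00996) and without WT replicate 2 (2.23e-07).

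RNA of plasma cells and of antigen receptors rose, while defining B and T cell genes stayed near the detection limit. Of 16 B and plasma cell genes tested, 3 were higher and 0 lower (5 higher without overexpression replicate 2). At the filter's level in all 4 libraries were 9 of the 16, of which 1 was higher. Jchain, the joining chain of secreted antibodies, read 6.35 and 5.44 CPM in WT and 76.3 and 72.4 CPM in overexpression (3.63 ± 0.14, adjusted p = 8.72e-09), and Mzb1, a chaperone of antibody-secreting cells, 0.607 and 0.0647 against 5.03 and 8.61 CPM. Antigen receptor segments held 0.0113% and 0.00983% of counts in WT and 0.117% and 0.121% in overexpression. Of 699 segments in the table, 111 passed the low-count filter and 78 were called. Of these 111, 43 had 0 counts in WT, passed only through overexpression and could only be higher, and 40 of the 43 were called. Segments with few WT counts can have passed in the same way, and their number was not determined. The count of called segments therefore supports nothing by itself. The most frequent segment without a WT count, Ighv1-82, had 290 counts in overexpression, at least 89.4-fold higher against a floor of 3 counts over the group. Reads can be shared among such segments. The B cell genes Pax5 and Blk had 0 counts in all 4 libraries. Cd3e, of the T cell receptor complex, had 0 and 0 counts in WT and 5 and 0 in overexpression. Of 30 T and NK cell genes, 9 could be tested and 0 were called by edgeR's quasi-likelihood test, of which 3 reached the filter's level in all 4 libraries. An unadjusted p under 0.05 was reached by 6 of the 9, all higher, DESeq2 called 1, and 4 were called without overexpression replicate 1. In the smaller lists, 1 of 10 dendritic and mast cell genes was higher (Itgax). It read 0.166 and 0.194 against 4.81 and 3.61 CPM, so it passed the filter only through overexpression. Of the 10, 6 reached the filter's level in all 4 libraries, and 0 of these were higher. Of 8 erythroid and platelet genes 1 was higher (Hbb-bs), and of 9 pericyte and muscle genes 1 was lower (Rgs5). Of 11 adipose, nerve and mesothelial genes 1 was higher and 1 lower, and of 7 hepatocyte genes 1 was higher and 2 lower. A list of 6 sex-linked genes had 0 of 4 tested called by edgeR's quasi-likelihood test or DESeq2, with 1 lower at an unadjusted p under 0.05.

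**Figure D3:**
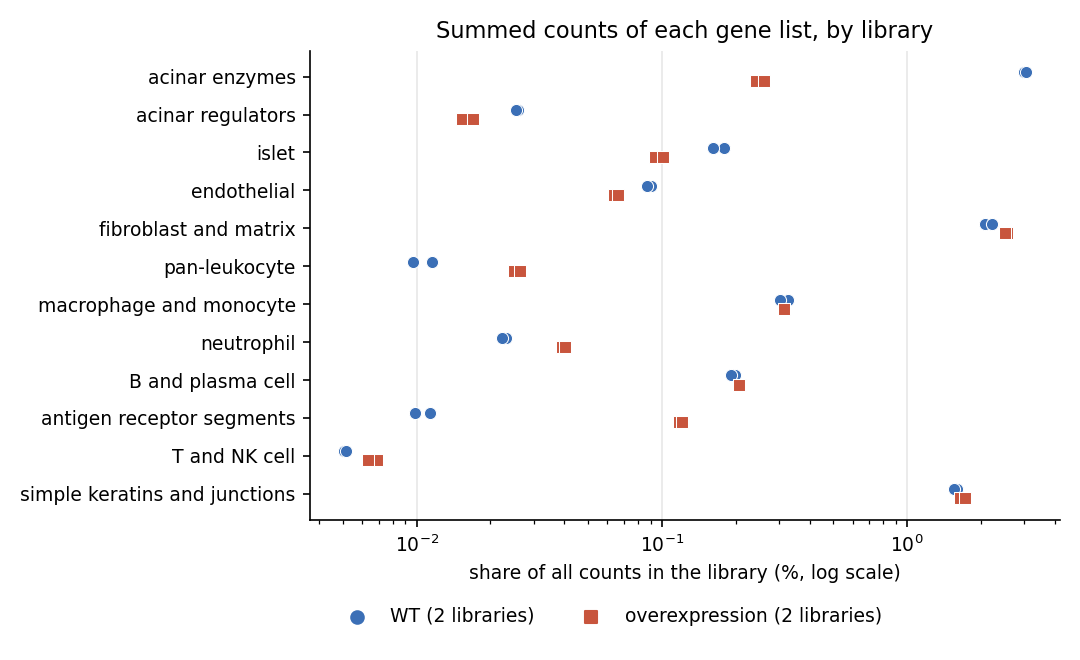
Share of all counts, in percent on a log axis, held by each of 12 gene lists in each of the 4 libraries, 1 point per library. Acinar enzymes fall from about 3.0% to under 0.3% and antigen receptor segments rise from about 0.01% to 0.12%, while simple keratins and junctions and fibroblast genes stay close.

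Programmes that describe the state of pancreatic tumour cells were examined next. They are also active in cells of the stroma and in leukocytes, whose own lists moved as given above, and the part of those cells in the values below was not tested. Classical tumours of the human disease resemble gastrointestinal epithelium, and basal-like ones resemble squamous epithelium. Of 29 classical and gastric genes tested, 4 were higher and 1 lower, with a median log2 fold change of 0.21. The share called was 17.2%, against 4.16% of all genes tested. Muc5ac, the gel-forming mucin of the gastric surface and of pancreatic precursor lesions, rose from 45.9 and 51.01 CPM to 147 and 128 CPM. Its log2 fold change of 1.49 ± 0.10 (adjusted p = 2.68e-06) was the largest of the 4 rises. The lectin Lgals4 read 774 and 735 against 957 and 975 CPM (0.34), the adhesion molecule Ceacam1 243 and 245 against 305 and 299 CPM (0.29) and the brush border motor Myo1a 41.3 and 47.1 against 62.2 and 59.9 CPM (0.45). Those 3 calls were each lost on leaving out 1 library: Lgals4 without overexpression replicate 2 (0.0628), and Ceacam1 (0.0529) and Myo1a (0.336) without WT replicate 1. Tff2, a trefoil peptide of gastric mucous neck cells, fell from 87.9 and 80.3 to 19.03 and 17.6 CPM (-2.22 ± 0.11, adjusted p = 1.36e-07). Muc1, Muc4, Cdh17 and Agr2 were not called.

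Of 22 basal and squamous genes tested, 1 was higher, Ly6d itself, and 0 were lower by edgeR's quasi-likelihood test (2 at an unadjusted p under 0.05, 0 by DESeq2). The median was -0.19. The laminin chain Lamb3 (-0.05), the integrin Itgb4 (0.18) and the keratin Krt14 (0.05) had small fold changes, and Trp63, the regulator of squamous identity, was too low to be tested. Without overexpression replicate 1, 3 members were called higher, and without WT replicate 2, 2 were.

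Among 22 regulators of epithelial identity, 2 were higher, Klf5 and Elf3, and 0 lower by edgeR's quasi-likelihood test. A further 6 were lower at an unadjusted p under 0.05, 0 by DESeq2, and 5 were called lower without overexpression replicate 1. Klf5, a Krüppel-like factor of proliferating gut epithelium, read 129 and 113 CPM in WT and 164 and 152 CPM in overexpression (0.37, adjusted p = 0.0262). Elf3, an epithelial ETS factor, read 398 and 414 against 491 and 503 CPM (0.27, adjusted p = 0.0357). Groups did not overlap in either gene, but Klf5 lost its call without WT replicate 2 (0.148) and Elf3 without WT replicate 1 (0.0570) or overexpression replicate 1 (0.0642) or 2 (0.132). The gut factors Hnf4a, Cdx2 and Gata6 had log2 fold changes of 0.08, 0.05 and -0.06.

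Stem and progenitor genes included 4 higher and 0 lower of 28 tested (14.3% called, against 4.16% of all genes), with a median of 0.065. Cxcr4, a chemokine receptor that leukocytes express as well, read 1.71 and 1.94 CPM in WT and 9.19 and 11 CPM in overexpression (2.45 ± 0.31, adjusted p = 0.00084). Its level moved beside that of Ptprc, given above. Lgr5, a receptor of the Wnt pathway in gut stem cells, read 23.3 and 24.4 against 33.7 and 36 CPM (0.53, adjusted p = 0.0464). Its relative Lgr4 read 73.7 and 74.1 against 96.4 and 95.7 CPM (0.36). Both lost their call without WT replicate 1 (0.279 and 0.150) or WT replicate 2 (0.138 and 0.0883), although no library of one group reached those of the other. The list had 1 higher member without WT replicate 2.

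**Figure D4:**
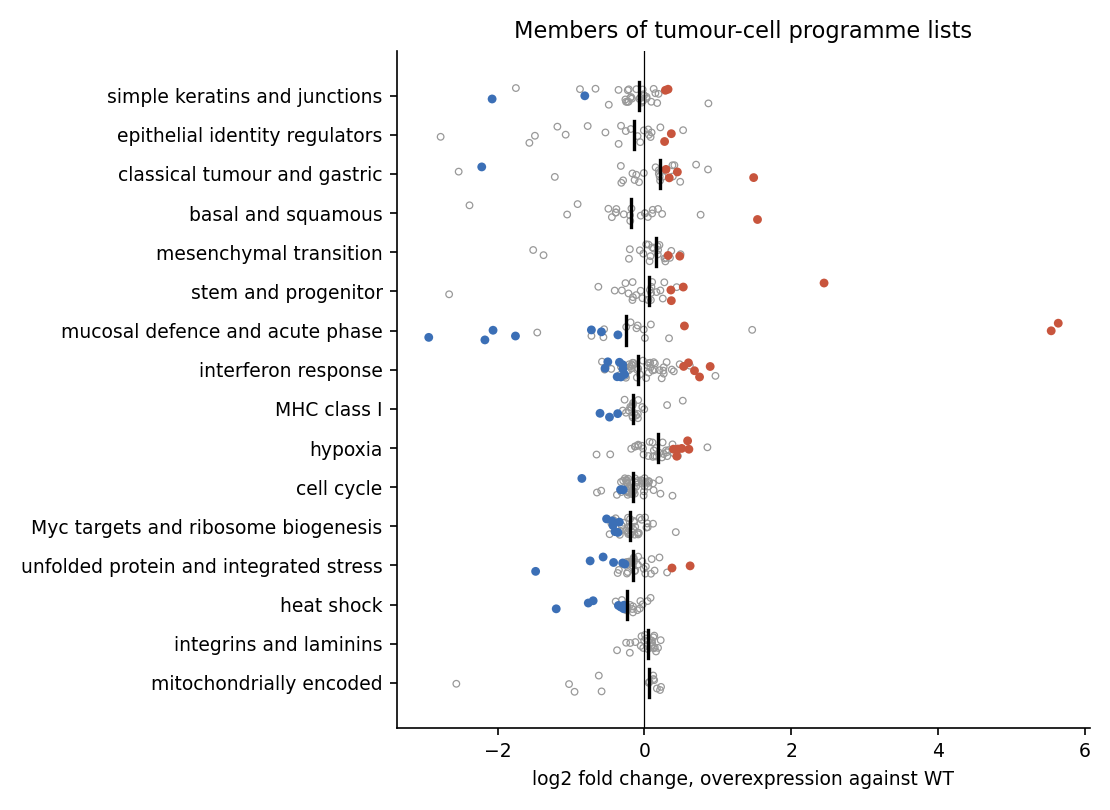
Log2 fold change of each tested member of 16 gene lists, with filled points for genes past the threshold (red higher, blue lower), open points for the others and a black bar at the list's median. Heat shock, Myc and ribosome and cell cycle lists have medians between -0.24 and -0.15, and hypoxia one of 0.18.

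Mucosal defence and acute-phase genes included clear losses. Of 23 tested, 7 were lower and 3 higher (43.5% called, against 4.16% of all genes tested), with a median of -0.25. The Reg3 lectins are antimicrobial proteins that gut epithelium and injured acinar cells secrete, and 4 of 4 were lower, 3 of them in this list and Reg3d outside it. Reg3b read 718 and 697 CPM in WT and 144 and 174 CPM in overexpression (-2.17 ± 0.09, adjusted p = 2.26e-08). Reg3a read 187 and 179 against 23.3 and 25.1 CPM, Reg3g 113 and 99.03 against 30.5 and 33.2 CPM, and Reg3d 43.2 and 40.5 against 4.81 and 5.06 CPM. No library of one group overlapped the other in any of them. Their falls were smaller than those of Pnlip or Cela2a and of similar size to that of Reg1, which belongs to the acinar list, and the part of acinar cells in them was not tested. Pigr, which carries antibodies across epithelia, was an abundant lower member, with 283 and 286 against 193 and 191 CPM (-0.59 ± 0.06, adjusted p = 0.000228). The 3 higher members were the neutrophil genes S100a8 and S100a9 and the acute-phase protein Hp, haptoglobin, whose call was lost without WT replicate 2 (0.113) or overexpression replicate 2 (0.0968).

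Receptors for fibroblast growth factors split. Fgfr2 fell from 15.2 and 17.3 to 4.87 and 6.28 CPM (-1.56 ± 0.22, adjusted p = 0.00218) and Fgfr3 from 36.1 and 37.7 to 10.1 and 12.9 CPM (-1.70 ± 0.16, adjusted p = 9.93e-05). Fgfr1, the most abundant, read 271 and 271 against 278 and 279 CPM, and Fgfr4 25.1 and 25.5 against 19.96 and 19.2 CPM. Neither of these was called. The family was picked out after its values were seen. Genes of ducts, from which such tumours are named, had 3 lower and 0 higher of 17 tested, with a median of -0.16. The lower members included Ambp (51.5 and 49.2 against 17.4 and 21.5 CPM) and the ciliary gene Pkhd1 (34.9 and 31.5 against 19.03 and 13.5 CPM). The list had 5 lower members without either WT library.

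Interferon-response genes moved in opposite directions within 1 list. Cells answer type I interferon through the factor complex ISGF3, which binds ISRE motifs, and interferon gamma mainly through factors that bind GAS motifs. Of 57 members tested, 5 were higher and 8 lower (22.8% called, against 4.16% of all genes tested), and the median was -0.08. The higher ones were all of the Ifit and Mx families, which block viral RNA and nucleocapsids and are typical of the type I response. Ifit3 read 47.4 and 49.5 CPM in WT and 76.7 and 80.6 CPM in overexpression (0.68 ± 0.10, adjusted p = 0.00187), Ifit1 32.5 and 30.9 against 48.6 and 48.7 CPM (0.60 ± 0.11), and Mx1 18.3 and 16.9 against 31.3 and 28.6 CPM (0.75 ± 0.14). Ifit3b, a near copy of Ifit3 whose reads may be shared with it, read 14.03 and 16.96 against 29.5 and 28.8 CPM. Of 6 Ifit and Mx genes tested, 5 were higher. The groups did not overlap in the 4 genes given. The calls for Ifit2 (0.144 without WT replicate 1) and Mx1 (0.0626 without WT replicate 2) rested on single libraries.

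The lower ones were guanylate-binding proteins, immunity-related GTPases and a chemokine, typical of the response to interferon gamma. Cxcl9, which attracts T cells, fell from 159 and 148 to 109.7 and 104 CPM (-0.54 ± 0.07, adjusted p = 0.00157). Gbp2, the most abundant of them, read 884 and 920.4 CPM in WT and 724 and 719 CPM in overexpression (-0.34 ± 0.07, adjusted p = 0.0147), and Gbp4 106 and 93.9 against 72.6 and 70.6 CPM (-0.50 ± 0.09). Of 6 Gbp genes tested, 3 were lower, and of 6 immunity-related GTPases, 4 were lower, among them Igtp (380.2 and 374 against 313 and 298 CPM). Without overexpression replicate 2, Gbp2 (0.0523), Igtp (0.0674), Iigp1 (0.103) and Gbp3 (0.0770) lost their calls. Gbp3 (0.143) and Tgtp1 (0.161) lost theirs without WT replicate 2, and Irgm1 (0.0781) without overexpression replicate 1. So 6 of the 8 lower calls, those of all 4 GTPases included, rested on a single library, while Cxcl9 and Gbp4 kept theirs with each library left out and with every other tool, scaling and filter tried. Neither the factors Irf1 (-0.22) and Irf7 (0.06) nor Isg15 (0.23) and Cxcl10 (-0.32) were called. Other settings added lower calls. Without the low-count filter, edgeR's quasi-likelihood test called Cxcl10 (adjusted p = 0.0166), Gbp6 (0.0215), Irgm2 (0.0158) and Tgtp2 (0.0438) lower. The list then had 6 higher and 13 lower members. Without overexpression replicate 2 the list had 6 higher and 5 lower members, and without WT replicate 2 it had 3 higher and 7 lower. These families were picked out after their values were seen.

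**Figure D5:**
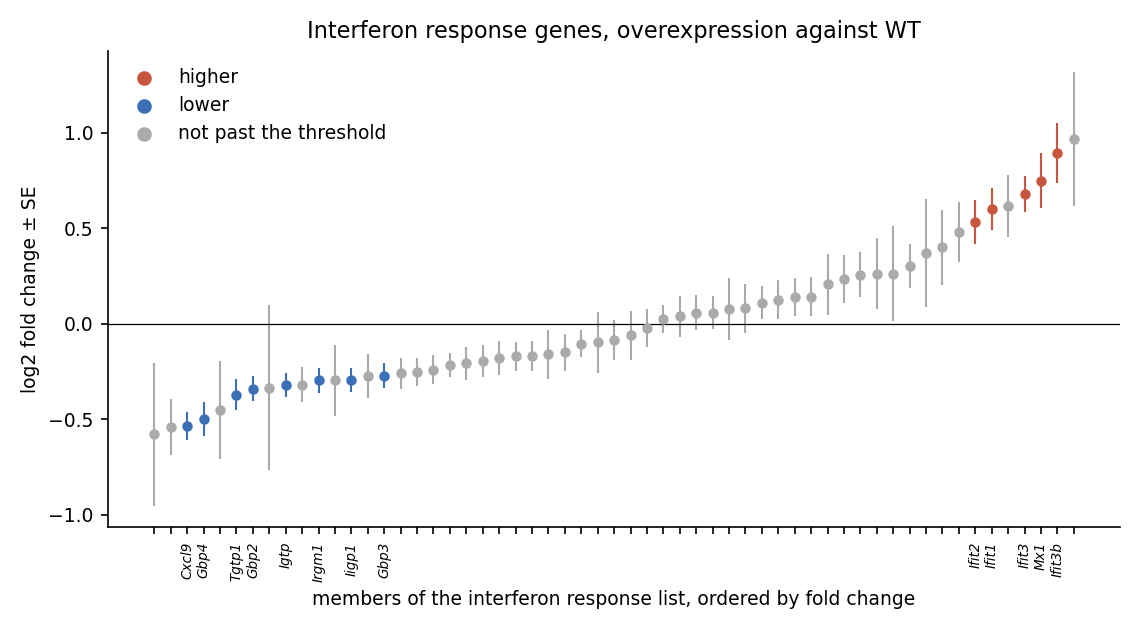
Log2 fold change of overexpression over WT, with its standard error, for each of the 57 tested members of the interferon-response list, ordered by value, with names under the called genes only. The 5 genes called higher (Ifit1, Ifit2, Ifit3, Ifit3b and Mx1) stand at the upper end, and the 8 called lower lie between -0.27 and -0.54.

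Sequences before the RefSeq start are given for Ifit3, a higher gene, and Cxcl9, a lower gene, since the 2 moved in opposite directions. Each has 250 bases, 5′ to 3′ (GRCm38.p6; Ifit3 at chr19:34583279-34583528, plus strand; Cxcl9 at chr5:92328080-92328329, minus strand). Capitals mark any match to the core of the ISRE, which is GAAA, then any 2 bases, then GAAA again, or to TTCNNNGAA, the core of the GAS motif, on either strand.
Ifit3: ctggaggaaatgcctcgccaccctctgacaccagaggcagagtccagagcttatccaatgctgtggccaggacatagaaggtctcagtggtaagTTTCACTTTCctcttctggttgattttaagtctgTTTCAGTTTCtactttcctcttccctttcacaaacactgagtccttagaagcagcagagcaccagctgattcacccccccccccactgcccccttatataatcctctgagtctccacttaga
Cxcl9: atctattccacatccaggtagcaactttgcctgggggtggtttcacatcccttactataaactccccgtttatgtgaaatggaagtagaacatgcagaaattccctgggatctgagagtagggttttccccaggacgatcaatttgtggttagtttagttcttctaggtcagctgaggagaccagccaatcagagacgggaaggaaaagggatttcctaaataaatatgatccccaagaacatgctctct
Ifit3 holds 2 ISRE matches and 0 GAS matches, and Cxcl9 has 0 of either in this window. Among higher interferon-response genes with a single listed start, 3 of 3 windows held an ISRE match, and among lower ones 4 of 5 did, against 3.11% of 22862 windows. The GAS core was found in 0 of 3 and 2 of 5 windows, against 7.226% of all. The presence of an ISRE match was therefore shared by genes of both directions. These motifs too were chosen after the values were seen.

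Hypoxia genes leaned higher. Of 36 tested, 6 were higher and 0 lower, with a median of 0.18. The share called was 16.7%, against 4.16% of all genes tested and 11.5% of the programme lists together. Ero1l, an oxidase of protein folding induced in hypoxia, rose from 149.7 and 155 to 236 and 233 CPM (0.61 ± 0.07, adjusted p = 0.000274). Ndrg1, a stress-induced gene of differentiating epithelium, rose from 348 and 344 to 465 and 484 CPM (0.44 ± 0.06). The mitophagy receptors Bnip3 (38.2 and 36.3 against 58.2 and 55.2 CPM) and Bnip3l (102 and 96.3 against 128 and 148 CPM) were higher without overlap. Other standard targets of the hypoxia factor HIF1 were not called: Vegfa read 561 and 519 against 581 and 567 CPM, and the fold changes of Car9 (0.05), Ldha (0.04) and Slc2a1 (0.25) were small. In the list of 18 glycolysis genes 1 was higher. The number of higher hypoxia genes was 9 without overexpression replicate 2.

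Calls among genes of growth were all lower. Of 41 Myc target and ribosome biogenesis genes tested, 6 were lower and 0 higher (14.6% called), with a median of -0.20. Of 54 cell cycle genes, 3 were lower and 0 higher (5.56% called), with a median of -0.15. Of all genes tested, 4.16% were called. Nop56, of the nucleolar machinery that modifies ribosomal RNA, read 158 and 144 CPM in WT and 111 and 117 CPM in overexpression (-0.43, adjusted p = 0.00841), and Nolc1 123 and 121 against 94.6 and 97.9 CPM (-0.36). Plk4, the kinase of centriole duplication, fell from 23.3 and 27.1 to 15.2 and 13.1 CPM (-0.85), a call lost without WT replicate 2 (0.114). Ccnd1, cyclin D1, read 385 and 366 against 321 and 301 CPM, and its call was lost without overexpression replicate 2 (0.124). The proliferation marker Mki67 (-0.24, adjusted p = 0.195), Top2a (-0.23, 0.0815) and Myc itself (-0.23, 0.127) pointed the same way and were not called. The number of lower Myc and ribosome genes ran from 2 without WT replicate 1 to 9 without overexpression replicate 2. The number of lower cell cycle genes ran from 1 without WT replicate 2 to 6 without overexpression replicate 1.

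Calls among chaperones of the heat shock response were all falls. Of 25 tested, 7 were lower and 0 higher (28% called, against 4.16% of all genes tested), with a median of -0.24. Hsph1, which helps HSP70 to refold proteins, fell from 145 and 141 to 89.1 and 81.7 CPM (-0.77 ± 0.08, adjusted p = 0.000134). The small heat shock protein Hspb8 fell from 17.5 and 16.3 to 7.65 and 7.22 CPM (-1.20), and Hsp90aa1, the inducible HSP90, from 849.6 and 811 to 670.4 and 644 CPM (-0.36). The groups did not overlap in these 3 genes, and the call for Hsp90aa1 was lost without overexpression replicate 2 (0.0562). Hspa1a (-0.25, adjusted p = 0.0549) and Hspa8 (-0.16) were not called, and Hsp90ab1, the constitutive HSP90, had a log2 fold change of 0.08.

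In the unfolded protein and integrated stress responses, 6 of 36 genes tested were lower and 2 higher, with a median of -0.15. The share called was 22.2%, against 4.16% of all genes tested. Nupr1, a stress-induced chromatin protein first found in pancreatitis, fell from 297 and 275 to 165 and 182 CPM (-0.74 ± 0.07, adjusted p = 0.00011). The ATF4 targets Asns, asparagine synthetase (87.4 and 93.5 against 57.2 and 66.7 CPM), Chac1, which degrades glutathione (12.3 and 12.4 against 3.99 and 4.94 CPM), and Aars, a tRNA synthetase (133 and 144 against 107 and 102 CPM), were lower without overlap. Sesn2, a stress-induced inhibitor of mTORC1, moved the other way, from 31.3 and 33.9 to 51.4 and 50.2 CPM (0.62), but not without WT replicate 1 (0.0505), when 0 genes of the list were higher. Atf4 (-0.23), Ddit3 (0.31) and Trib3 (-0.27) were not called. Acinar cells carry a high load of secretory proteins and express several of these genes, and the part of the acinar difference in them was not tested.

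Signalling lists had 0 to 3 calls each. Integrins and laminins had 0. In the other lists the share called ran from 5.88% (EGFR family) to 13.04% (Wnt targets), against 4.16% of all genes tested. Of 17 EGFR family genes 1 was higher, the receptor Erbb3, which rose from 74.1 and 74.9 to 109 and 110.5 CPM (0.54, adjusted p = 0.00265), while Egfr (0.25) and Erbb2 (0.18) were not called. In the list of KPC drivers and p53 targets, with 30 tested, 2 were higher and 1 lower. The higher ones were Btg2 (244 and 225 against 347 and 316 CPM) and Sesn2, given above. Plk2 (106 and 101 against 80.9 and 72.3 CPM) was lower, and Trp53 had a log2 fold change of -0.02. The TGF-beta list of 27 genes had 2 higher and 1 lower, with the matrix protein Tgfbi rising from 109 and 112 to 157 and 156 CPM (0.48, adjusted p = 0.00263). The YAP target list of 22 genes had 1 higher and 1 lower, the latter being Ankrd1 (83.1 and 82.6 against 63.1 and 60.3 CPM). Of 23 Wnt target genes 2 were higher and 1 lower. The 25 integrin and laminin genes had 0 called by edgeR's quasi-likelihood test, with a median of 0.05. Of these, 3 were higher and 2 lower at an unadjusted p under 0.05, DESeq2 called 1 lower, and 2 were called higher without WT replicate 2. The number of higher Wnt targets was 0 without either WT library.

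Antigen presentation by MHC class I had 3 lower and 0 higher of 22 tested, with a median of -0.16, among them the class I gene H2-Q6 (65.8 and 61.1 against 42.97 and 41.5 CPM, -0.61) and the proteasome activator Psme2 (124 and 121 against 93.1 and 85.3 CPM, -0.48). Without WT replicate 2 the list had 5 lower genes. H2-Q6 has close relatives whose reads may be shared. Of 38 NF-kB and inflammatory genes, 2 were higher and 3 lower, and the chemokine Cxcl1 was a lower one (90.9 and 76.8 against 58.01 and 48.4 CPM, -0.67, adjusted p = 0.00628), in contrast to Il1b. The 39 genes of the NRF2 oxidant response had 2 higher and 1 lower, 37 fatty acid genes 3 higher and 1 lower (0 higher without WT replicate 1), 27 cholesterol genes 0 higher and 1 lower, and 27 apoptosis genes 2 higher and 0 lower, Bmf, a pro-apoptotic BH3-only gene, being a higher one (53.2 and 52.04 against 79.9 and 77.7 CPM, 0.56). Of 13 mitochondrially encoded genes 0 were called by edgeR's quasi-likelihood test with all libraries, while 3 were higher and 3 lower at an unadjusted p under 0.05, DESeq2 called 0, and 4 were called higher without WT replicate 2. Of 24 genes of mesenchymal transition 2 were higher, Fn1 and Tgfbi given above, of 32 proteases and inhibitors 2 were lower, the membrane serine proteases Prss8 (-2.10) and Hpn (-1.84), and of 27 immediate early genes 1 was higher. The MHC class II list had 1 higher of 10, the lysosomal protease Ctss (11.9 and 10.7 against 34.8 and 30.1 CPM), which myeloid cells also express. The small counts moved with the libraries kept. Lower NF-kB genes numbered 1 without WT replicate 1 and 5 without overexpression replicate 2, and higher ones 1 without WT replicate 2 or overexpression replicate 1. Genes of mesenchymal transition had 4 higher without WT replicate 2 or overexpression replicate 2 and by DESeq2, and proteases 4 lower without overexpression replicate 1. The NRF2 list had 4 higher without overexpression replicate 1 and 3 lower without overexpression replicate 2, and immediate early genes had 3 higher without WT replicate 1 and 0 without overexpression replicate 2. The apoptosis list had 1 higher without either WT library or overexpression replicate 2.

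Outside all lists, genes with at least 50 CPM in both groups had 102 higher and 32 lower of 3897 tested. Klhl24, a ubiquitin ligase adaptor that targets keratins, rose from 52.7 and 53.8 to 92.8 and 90.5 CPM (0.77 ± 0.09, adjusted p = 0.000407). Alpi, the intestinal alkaline phosphatase and a marker of mature enterocytes, rose from 75.98 and 83.2 to 134 and 136 CPM (0.74 ± 0.08, adjusted p = 0.000268). Tsc22d3, or GILZ, a glucocorticoid-induced gene, rose from 85.04 and 80.8 to 128 and 129 CPM (0.61 ± 0.08). The matrix genes Col12a1 (71.8 and 79.5 against 115 and 108 CPM) and Thsd4 (57.1 and 52.8 against 80.4 and 81.7 CPM) were higher as well. Groups that do not overlap were a condition for choosing these 5 genes, so the separation adds no support. Among falls, the cytokine Clcf1 read 117 and 111 against 85.02 and 78.2 CPM (-0.50) and the nuclear RNA Malat1 949 and 845 against 668 and 553 CPM (-0.57). Rps27rt, a copy of a ribosomal protein gene, read 64.1 and 40.9 against 238 and 86.05 CPM. Its overexpression replicates differed widely, its reads may belong to other copies, and DESeq2 gave an adjusted p of 0.275.

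At lower levels, the largest rises outside the lists included genes of myeloid cells, which moved beside the leukocyte lists given above. Acod1, which makes itaconate in activated macrophages, rose from 3.64 and 2.65 to 14.4 and 16.1 CPM (2.25), the chemokine Ccl6 from 5.36 and 5.24 to 21.6 and 28.4 CPM (2.22), Plek, pleckstrin, from 4.97 and 3.37 to 18.4 and 20.9 CPM (2.21) and the inhibitory receptor Lilr4b from 3.59 and 2.39 to 17.4 and 19.2 CPM (2.58). Fabp1, the fatty acid binding protein of enterocytes and hepatocytes, rose from 3.42 and 2.72 to 10.2 and 8.94 CPM (1.62). The largest falls included Klk1b5, a kallikrein (13.9 and 13.7 against 1.15 and 1.44 CPM, -3.43), the enzyme Ggt1 (9.66 and 11.1 against 0.875 and 1.33 CPM, -3.24), Ces1d, a carboxylesterase (47.4 and 52.9 against 13.1 and 7.55 CPM, -2.30) and Shank2, a scaffold protein (19.8 and 18.2 against 4.65 and 3.72 CPM, -2.20). Groups that do not overlap were a condition for choosing these 9 genes, so the separation adds no support. The folds of Klk1b5 and Ggt1 lie in the range of the acinar enzymes, and whether acinar cells contribute them was not tested.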

How the data were processed

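Whole-number counts per gene, deposited by the authors, were analysed for 4 libraries: 2 of sorted WT and 2 of sorted overexpression cells. The submitters' processing notes list DESeq2, HISAT2, fastp and featureCounts, with no version, beside the build mm9. The coordinates deposited with the counts are those of GRCm38: of 54532 genes, 54409 were in its GENCODE annotation and 98.33% of these had the same position. The use of strand in counting is not stated, so overlapping genes may share reads. There were 2 other count columns, which no label matched; they stayed unused. The length column deposited beside each gene gives bases and served only for levels per length (RPKM), which ranked genes within a group.

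The test was that of edgeR 4.0.16 under R 4.3.3: filterByExpr, TMM scaling, glmQLFit and glmQLFTest over the 4 libraries, with Benjamini-Hochberg adjustment over all 15771 genes and a threshold of 0.05. The standard error is the absolute log2 fold change over the root of F. The procedure was tested on simulated data. DESeq2 1.42.0, other scalings and filters, each library left out in turn and a replicate block were alternatives. Replicates of a group differed by more than sampling noise (chi-square per degree of freedom 26.89 in WT and 8.66 in overexpression), so none was counted as a duplicate. On the log2 scale the overexpression replicates were the less alike (standard deviation of their difference 0.478, against 0.336 in WT). Same-numbered libraries of the 2 groups did not deviate together (r = -0.0581 over 9856 genes, a description), and the numbers were not taken as pairs. WT replicate 2 held 127081 counts of Gm23935, a short noncoding gene, against 8811 to 11966 in the other libraries.

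The 48 gene lists (1339 entries, 1338 matched) and the genes named were chosen with earlier results of these data known. Antigen receptor segments were taken by the biotype in the table. Named are Ly6d, cell type markers, the 12 largest rises and 12 largest falls outside the lists of other cell types at a mean of at least 5 CPM, and again at 50 CPM or more in both groups, and up to 4 called members with the lowest p of each list. Predicted genes, pseudogenes and genes whose groups overlap were left out of the largest rises and falls. Other genes, namely Aars, Agr2, Amy2a1, Apoe, Atf4, Bhlha15, Bnip3l, Car9, Cdh17, Cdx2, Cpe, Cxcl10, Ddit3, Egfr, Erbb2, Fgfr1, Fgfr2, Fgfr3, Fgfr4, Gata4, Gata6, Gbp2, Gbp3, Hnf4a, Hp, Hsp90ab1, Hspa1a, Hspa8, Iapp, Ifit1, Ifit2, Ighv1-82, Igtp, Iigp1, Irf1, Irf7, Irgm1, Isg15, Itgb4, Krt14, Lamb3, Lcn2, Ldha, Ly6a, Ly6e, Mki67, Muc1, Muc4, Mx1, Myc, Myo1a, Nolc1, Nr5a2, Pcsk2, Pdx1, Prss1, Reg1, Reg2, Reg3g, Slc2a1, Spp1, Tgtp1, Top2a, Trib3, Trp53 and Vegfa, as well as gene families, level classes and motifs, were chosen after their values were seen. Promoter windows are from RefSeq (GRCm38.p6), and a list may share genes with another. Some genes are not reported here.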

Additional observations from a re-analysis of the deposited data

How the results depend on the processing

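Without a low-count filter, over 25175 genes, 608 came out higher and 579 lower. With other-cell-type genes and antigen receptor segments left out, 229 were higher and 216 lower. Leaving out each library in turn gave 327 to 694 higher and 238 to 890 lower genes. The high counts came without overexpression replicate 1 (694 and 890) and replicate 2 (526 and 536), and with WT replicate 1 or 2 left out they were 356 and 257 or 327 and 238. Over the genes of the test on all 4 libraries, an alternative chosen after seeing the data, these ranges were 337 to 545 and 234 to 713. Leaving out a library leaves 1 sample in its group, assumed to vary like the other group. DESeq2 called 438 higher and 333 lower genes, size factors in edgeR 367 and 292, scaling without other-cell-type genes 369 and 288, and a filter at 1 CPM 408 and 350. With the replicate number as a block, 256 were higher and 203 lower, 455 of these 459 shared with the test without the block, and Ly6d had a log2 fold change of 1.54; the numbers are not known to pair the libraries, so calls lost under the block are not weaker effects. No gene called in both the main test and an alternative changed direction. Of 262 genes followed that passed the threshold, 177 passed it in every planned setting. Of the 290 genes followed, the sign reversed only in Trp53, which was not called in any setting: leaving out each library in turn gave log2 fold changes of -0.122 to 0.0609. In list directions with 0 calls, 0 to 6 members had an unadjusted p under 0.05 and DESeq2 called 0 to 1. With 2 libraries a group, differences in genes of a few CPM were detectable only when large.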
